A study of Mus musculus with 12 samples.

Results

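The 10 hepatic bile acid transporter genes were described in mouse liver by RNA sequencing across 3 groups of male C57BL/6NTac mice. They were picked by function. Slc10a1, Slco1a1, Slco1a4 and Slco1b2 are uptake carriers of the blood-facing (basolateral) side of the hepatocyte, Abcb11, Abcb4 and Abcc2 are export pumps of the bile-facing (canalicular) side, and Abcc3, Abcc4 and Slc51b are basolateral efflux carriers. All 10 were found among the 55359 genes of the count table, and 9 of them were among the 15274 genes with enough counts to test; Slc51b was not. The NM-FGF19 group had a high-fat diet and was given lipid nanoparticles (LNPs) carrying NM-FGF19 mRNA, a form of FGF19 that the labels do not describe further. The HFD control group had the same diet and LNPs with a control mRNA, and the lean group had normal chow and LNPs with a control mRNA. All mice therefore received mRNA-LNPs, weekly for 6 weeks. Livers of 4 mice per group were collected 24 hours after dosing ended. The mice are given as 24 weeks old, and the time on diet is given as 21 weeks in the series description and as 28 weeks in the growth protocol. The labels do not name the control mRNA. The HFD control columns of the count table carry the name mOX40L, and the labels do not say whether both control groups received the same mRNA.

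Bile acids circulate between liver and intestine, and hepatocytes take them up from portal blood, secrete them into the canaliculus and, when they accumulate, can return them to blood. Ntcp (Slc10a1) takes up conjugated bile acids together with sodium, the Oatp carriers (Slco genes) take up bile acids and many other organic anions without sodium, and the bile salt export pump (Abcb11) drives canalicular secretion. FGF19 is the human counterpart of mouse FGF15, an intestinal hormone that acts on hepatocytes through Fgfr4 and Klb and lowers transcription of bile acid synthesis genes.

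Promoter sequences were taken from RefSeq (GRCm38.p6), as 250 bases before to 50 bases after the annotated start, and 9 of the 10 genes had an entry, with 11 promoters in all. The counts were made on the build mm39, so these sequences show the genes and their coordinates are not those of the count table. Shown are Slc10a1, the uptake gene that was called lower in HFD control livers, and Abcb11 and Slco1b2, whose promoters held a motif that is rare among all promoters. Of the Slc10a1 promoters among the 11, the promoter with the letters marked below is shown. Another Slc10a1 promoter lacks them. In Slc10a1 (chr12:80968656-80968955, minus strand) capitals mark CAAAGTC, a core letter run of sites of the hepatocyte factor HNF4A. In Abcb11 (chr2:69342567-69342866, minus strand) and Slco1b2 (chr6:141629268-141629567, plus strand) they mark an inverted repeat of the form bound by the bile acid receptor FXR (Nr1h4), searched as AGGNCA and TGACCT with 1 free base between.
Slc10a1: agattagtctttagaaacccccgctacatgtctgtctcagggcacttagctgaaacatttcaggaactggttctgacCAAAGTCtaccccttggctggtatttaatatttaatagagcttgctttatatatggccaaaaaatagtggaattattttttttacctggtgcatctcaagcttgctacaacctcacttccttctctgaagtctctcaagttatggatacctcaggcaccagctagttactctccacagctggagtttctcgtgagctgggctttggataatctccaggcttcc
Abcb11: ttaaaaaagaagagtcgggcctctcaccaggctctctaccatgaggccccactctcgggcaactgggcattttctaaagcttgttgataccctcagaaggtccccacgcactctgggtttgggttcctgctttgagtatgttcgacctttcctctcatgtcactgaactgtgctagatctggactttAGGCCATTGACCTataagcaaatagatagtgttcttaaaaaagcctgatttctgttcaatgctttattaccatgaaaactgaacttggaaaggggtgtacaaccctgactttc
Slco1b2: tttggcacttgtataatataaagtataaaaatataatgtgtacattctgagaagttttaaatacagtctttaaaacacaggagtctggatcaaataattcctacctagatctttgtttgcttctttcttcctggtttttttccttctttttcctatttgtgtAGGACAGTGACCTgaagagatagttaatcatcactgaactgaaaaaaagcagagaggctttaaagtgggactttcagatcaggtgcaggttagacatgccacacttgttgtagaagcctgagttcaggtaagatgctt

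Both strands were searched. The inverted repeat was present in 2 of the 11 transporter promoters and in 12 of the 32851 promoters of the table (0.0365%). It began 63 bases before the Abcb11 start (AGGCCATTGACCT) and 88 bases before the Slco1b2 start (AGGACAGTGACCT). By the form searched, each of these matches must contain the nuclear receptor hexamer AGGTCA on the opposite strand. That hexamer was found in 6 of the 11 transporter promoters, Abcb11 and Slco1b2 included, and in 16.3% of all promoters. CAAAGTC was found in 1 of the 11, the Slc10a1 promoter shown, at 173 bases before its start, and in 4.44% of all promoters. The other Slc10a1 promoter lacked CAAAGTC and held AGGTCA at 87 bases before its own start. TGACNNNGC, the core of antioxidant response elements, was found in 3 of the 11 and in 12.4% of all promoters, and TATAAA in 3 of the 11 and in 13.6%. A match describes the letters of these windows only.

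Libraries held 26809039 to 30014092 counts in NM-FGF19, 32284438 to 33257260 in HFD control and 23743415 to 30349156 in lean livers. Levels are given as CPM, the count scaled to library totals that were corrected by the TMM method, and 3 counts in a library made 0.0792 to 0.153 CPM. Fold changes come from edgeR's quasi-likelihood test over all 12 libraries. P-values were adjusted by the Benjamini-Hochberg method over the 15274 genes, with a threshold of 0.05. After a log2 fold change, ± is its standard error and a range in parentheses its 95% interval. The labels name no cage, litter or library batch. The p-values weigh group differences against the spread between the mice within groups, and they do not cover an effect shared by a whole group. Summed hepatocyte markers (10 genes, Alb and Apoa1 among them, all with counts) stood at 100161 to 147592 CPM in NM-FGF19 livers, 57165 to 79767 CPM in HFD control livers and 96107 to 135280 CPM in lean livers. The sums of the HFD control livers thus lay below those of both other groups. Alb was the largest member, with means of 75269 CPM in NM-FGF19, 33264 CPM in HFD control and 54574 CPM in lean livers. In NM-FGF19 against HFD control 0 of the 10 were called, against 0.432% of all tested genes. There 4 of the 10 were higher without overlap, against 3.23% of all tested genes. In HFD control against lean 1 of the 10 was called (Fga, lower), against 3.29% of all tested genes called lower. Without overlap, 5 of the 10 were lower, Alb (24381 to 41990 CPM in HFD control, 45793 to 63234 CPM in lean livers) among them. Of all tested genes 15.3% did not overlap in either direction. Ttr (log2 fold change 0.02), Asgr1 (-0.20), Apob (-0.26) and Cps1 (-0.28) overlapped between these groups and were not called. The same held for Tat, at 346 to 1458 CPM in HFD control and 736 to 3155 CPM in lean livers. In bulk liver, fewer hepatocytes and less RNA of these genes per hepatocyte cannot be told apart, and the part of this difference in the transporter results was not tested. Stellate cell markers (7 genes) summed to 224 to 469 CPM in NM-FGF19 livers, 288 to 506 CPM in HFD control livers and 135 to 184 CPM in lean livers. Cholangiocyte markers (10 genes) summed to 76.1 to 175 CPM in NM-FGF19, 66.3 to 160 CPM in HFD control and 98.3 to 393 CPM in lean livers. Macrophage markers (8 genes) summed to 175 to 331 CPM in NM-FGF19, 208 to 513 CPM in HFD control and 373 to 498 CPM in lean livers. Of the 8, 2 were called higher in HFD control against lean (Cd68, 1.08, and Gpnmb, 7.22) and 3 lower (Clec4f, -2.57, Marco, -3.49, and Timd4, -5.50). The macrophage sum thus joins members that moved in opposite directions. Of all tested genes 5.04% were called higher and 3.29% lower in that comparison. No gene of these 3 lists was at 0 in all libraries. Of the 5 adipocyte markers, 1 (Cfd) had enough counts to test. Cfd stood at 0 to 0.264 CPM in NM-FGF19, 0.754 to 21.1 CPM in HFD control and 0 to 0.186 CPM in lean livers. Adipoq, Plin1 and Retn did not exceed 0.107 CPM in any library, and Lep was at 0 throughout.

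The levels of the 10 genes can be compared with each other only per length, as CPM per kb of exon, with exon lengths from a GENCODE annotation of GRCm38. In NM-FGF19 livers Slco1b2 (215 ± 57.5 CPM per kb, SD, n = 4 here and below) and Slc10a1 (201 ± 20.1) were highest, and their spreads overlapped. Abcb11 (86.5 ± 27.7), Abcc2 (80.6 ± 15.7) and Slco1a1 (77.9 ± 16.3) followed within each other's spread, then Abcc3 (28.4 ± 11.2) and Abcb4 (21.4 ± 4.47), whose spreads also overlapped. Slco1a4 (2.51 ± 1.02), Abcc4 (0.689 ± 0.167) and Slc51b (0.234 ± 0.121) were each below the gene before by more than the spread. Among the uptake carriers Slco1b2 and Slc10a1 thus stood highest and Slco1a4 lowest.

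In HFD control livers Slco1b2 (217 ± 56.1 CPM per kb) was highest, then Slc10a1 (133 ± 39.7), Abcc2 (83.6 ± 13.1), Abcb11 (77.7 ± 37.5), Abcc3 (50.9 ± 16.4), Slco1a1 (33.7 ± 22.0) and Abcb4 (28.7 ± 5.17). From Slco1b2 to Abcb4 the spread of each gene overlapped that of the next. Slco1a4 (6.61 ± 4.68), Abcc4 (0.738 ± 0.130) and Slc51b (0.133 ± 0.128) stood below these, each outside the spread of the gene before. Lean livers had Slc10a1 (238 ± 63.9) and Slco1b2 (179 ± 29.5) highest with overlapping spreads, and Abcb11 (120 ± 26.9) below them. Abcc2 (57.6 ± 18.3) and Slco1a1 (56.0 ± 15.5) followed within each other's spread, then Abcb4 (20.6 ± 1.81) and Abcc3 (10.8 ± 4.47), apart from each other. Slco1a4 (2.19 ± 1.89), Slc51b (0.663 ± 0.473) and Abcc4 (0.632 ± 0.254) were lowest in lean livers, each within the spread of the next. By group mean, Abcc3 therefore stood above Slco1a1 and Abcb4 in HFD control livers, below Slco1a1 but above Abcb4 in NM-FGF19 livers, and below both in lean livers.

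**Figure D1:**
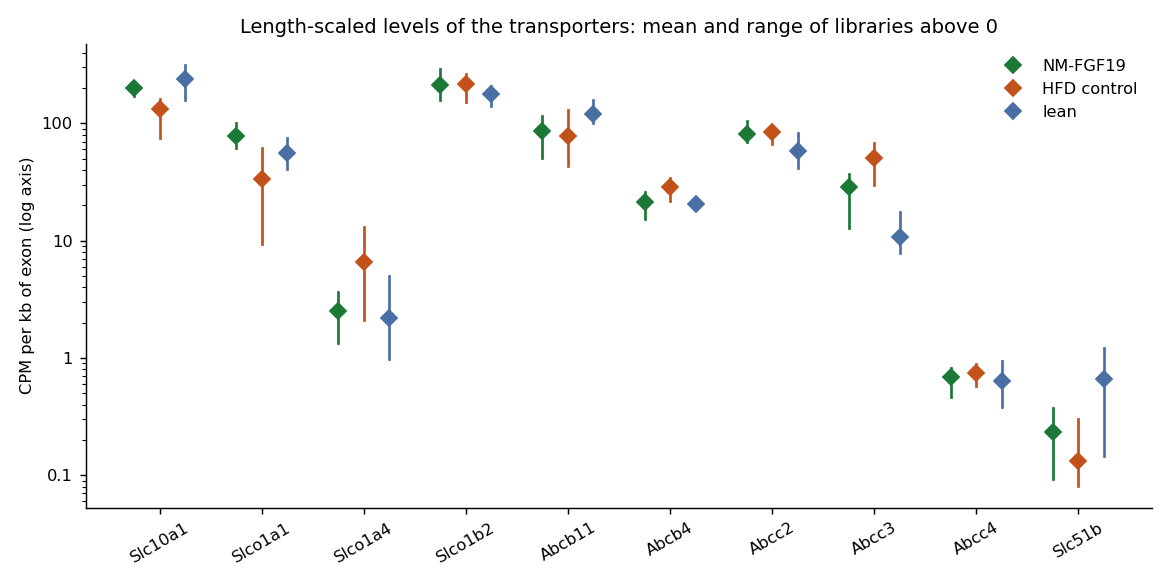
Length-scaled levels of the 10 transporter genes: diamonds are means of 4 libraries and lines the range of libraries above 0, in CPM per kb of exon on a log axis, for NM-FGF19, HFD control and lean livers. Slco1b2 and Slc10a1 have the highest means in every group, at 133 to 238 CPM per kb, and the group means of Abcc4 and Slc51b are below 1 CPM per kb.

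In HFD control against lean livers, of the 9 tested transporter genes 1 was called higher (Abcc3, basolateral efflux), 1 was called lower (Slc10a1, uptake) and 7 were not called. Across all tested genes 8.33% were called in this comparison, 5.04% higher and 3.29% lower. The groups did not overlap for 1 of the 9 (Abcc3), against 15.3% of all genes, and 5 of the 9 had an unadjusted p under 0.05, against 24.6%. The median log2 fold change was 0.28 over the 9 genes and -0.02 over all tested genes.

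In NM-FGF19 against HFD control livers 0 of the 9 genes were called by edgeR, by DESeq2 or by limma voom, while edgeR called 0.432% of all tested genes. At an unadjusted p under 0.05 there were 2 of 9 higher (Slc10a1 and Slco1a1) and 3 of 9 lower (Slco1a4, Abcb4 and Abcc3), against 8.95% of all genes in either direction. The median was -0.05 over the 9 genes and -0.00046 over all. In NM-FGF19 against lean livers 0 of the 9 genes were called by edgeR and by limma voom, against 1.49% of all genes by edgeR. DESeq2 called 1 of the 9 (Abcc3, higher), and among all 15274 tested genes 601 higher and 368 lower. Abcc2 and Abcc3, both higher, had an unadjusted p under 0.05 there, against 16.7% of all genes, and the groups overlapped for all 9, while they did not for 10.3% of all genes. NM-FGF19 against HFD control and HFD control against lean share the 4 HFD control libraries, so the values of each gene are given side by side.

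**Figure D2:**
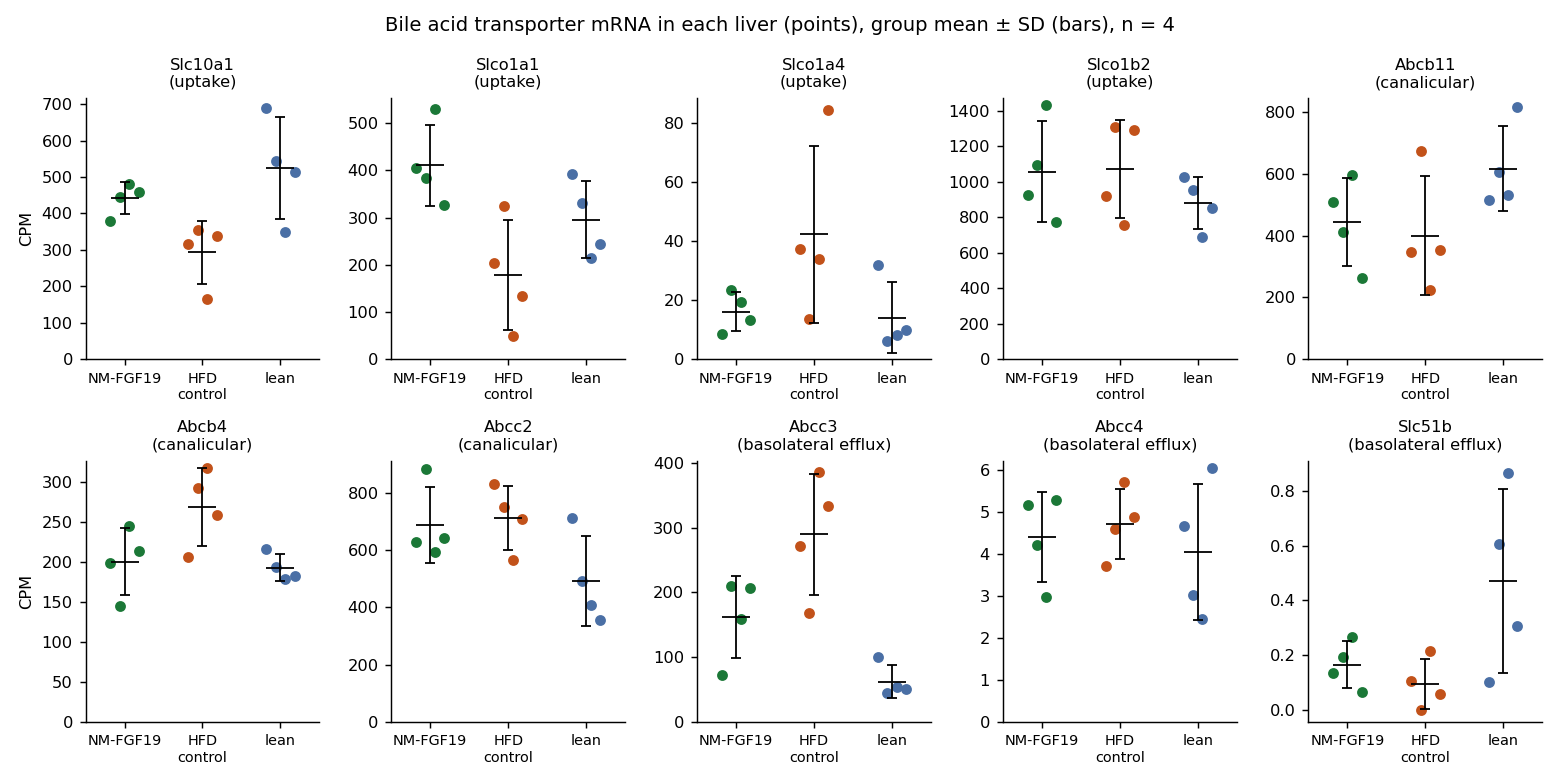
CPM of each transporter gene in each of the 12 livers (points), with the mean ± SD of the 4 libraries of a group (bars); all axes are linear and include 0. Abcc3 is higher in all 4 HFD control livers (168 to 386 CPM) than in the lean livers (44.3 to 99.5 CPM), and Slc10a1 is higher in all 4 NM-FGF19 livers (379 to 482 CPM) than in the HFD control livers (164 to 354 CPM).

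Slc10a1 (Ntcp, chromosome 12), the sodium-dependent uptake carrier, had 379, 447, 482 and 458 CPM in NM-FGF19 livers, 317, 354, 164 and 337 CPM in HFD control livers and 691, 543, 348 and 514 CPM in lean livers. All 4 NM-FGF19 livers were above all 4 HFD control livers, as was the case for 3.23% of all tested genes. HFD control and lean overlapped only through HFD control 2 and lean 3. NM-FGF19 and lean livers overlapped, and the NM-FGF19 livers were the closest together, with a coefficient of variation of 9.99% against 29.8% in HFD control and 26.8% in lean livers. The level fell to 0.559 of lean in HFD control livers, a log2 fold change of -0.84 ± 0.24 (95% interval -1.36 to -0.32, adjusted p = 0.04996 by edgeR). That call sat at the threshold and was held in 6 of 18 alternatives, over which the value ranged from -0.97 to -0.56 and the adjusted p from 0.0095 to 0.143. NM-FGF19 against HFD control gave 0.59 ± 0.24 (0.07 to 1.11, unadjusted p = 0.0294, adjusted p = 0.479), and NM-FGF19 against lean -0.25 ± 0.24 (-0.77 to 0.27, adjusted p = 0.661).

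Slco1a1 (Oatp1a1, chromosome 6), a sodium-independent carrier known in mice for its higher level in male liver, had 405, 384, 530 and 326 CPM in NM-FGF19 livers, 204, 324, 49.2 and 134 CPM in HFD control livers and 393, 331, 214 and 244 CPM in lean livers. The NM-FGF19 and HFD control groups did not overlap, but only narrowly (325.5 CPM in NM-FGF19 4 and 324.1 CPM in HFD control 2), and HFD control 3 was far below the rest. NM-FGF19 against HFD control gave a log2 fold change of 1.21 ± 0.43 (0.27 to 2.15, unadjusted p = 0.0162, adjusted p = 0.405 by edgeR). HFD control against lean gave -0.73 ± 0.43 (-1.67 to 0.20, adjusted p = 0.326) and NM-FGF19 against lean 0.48 ± 0.43 (-0.46 to 1.41, adjusted p = 0.627). Slc10a1 and Slco1a1 were the 2 transporter genes whose NM-FGF19 and HFD control groups did not overlap, a state that 5.62% of all tested genes showed in either direction.

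Slco1a4 (Oatp1a4, chromosome 6), a related carrier known to respond to the xenobiotic receptor CAR (Nr1i3) in mice, had 8.63, 23.5, 19.2 and 13.1 CPM in NM-FGF19 livers, 37.5, 13.5, 34.0 and 84.5 CPM in HFD control livers and 32.1, 6.27, 8.06 and 9.79 CPM in lean livers. HFD control 1, 3 and 4 were above every other liver, HFD control 2 lay among the NM-FGF19 livers, and lean 1 lay apart above the other lean livers. HFD control against lean gave a log2 fold change of 1.58 ± 0.62 (0.22 to 2.94, adjusted p = 0.141), and 2.40 with an adjusted p of 0.0311 without lean 1. NM-FGF19 against HFD control gave -1.40 ± 0.61 (-2.75 to -0.05, adjusted p = 0.543). NM-FGF19 against lean gave 0.19 (-1.15 to 1.53, adjusted p = 0.914). Slco1a1 and Slco1a4 are close relatives. Of the 101-base exon windows, 0.596% of Slco1a1 and 0.624% of Slco1a4 occur also in another gene (each other or Slco1a5).

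Slco1b2 (Oatp1b2, chromosome 6), the carrier for unconjugated bile acids and bilirubin in mouse liver, had 927, 1092, 1435 and 775 CPM in NM-FGF19 livers, 919, 1311, 756 and 1294 CPM in HFD control livers and 1025, 953, 689 and 854 CPM in lean livers. Its groups overlapped in every comparison, and no lean liver reached the highest values of the other groups (1435 CPM in NM-FGF19 and 1311 CPM in HFD control). Log2 fold changes were 0.28 in HFD control against lean (-0.21 to 0.78, adjusted p = 0.494), -0.02 in NM-FGF19 against HFD control (-0.51 to 0.48, adjusted p = 0.992) and 0.26 in NM-FGF19 against lean (-0.23 to 0.76, adjusted p = 0.61). Its promoter and that of Abcb11 held the inverted repeat shown above, and neither gene was called in any of the 3 comparisons.

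Among the canalicular pumps, Abcb11 (Bsep, chromosome 2), which exports conjugated bile acids and is a known target of FXR, had 510, 411, 595 and 263 CPM in NM-FGF19 livers, 348, 675, 224 and 352 CPM in HFD control livers and 515, 607, 531 and 816 CPM in lean livers. HFD control 1, 3 and 4 were below every lean liver and HFD control 2 lay among the lean livers, while the NM-FGF19 livers spanned most of the range. HFD control against lean gave a log2 fold change of -0.63 ± 0.32 (-1.32 to 0.06, adjusted p = 0.251), and -1.003 with an adjusted p of 0.041 without HFD control 2. NM-FGF19 against HFD control gave 0.15 ± 0.32 (-0.53 to 0.84, adjusted p = 0.949) and NM-FGF19 against lean -0.47 ± 0.32 (-1.16 to 0.22, adjusted p = 0.495). Gm13613 and Gm13614 overlap Abcb11 exons on the opposite strand and had 0 to 20 and 0 to 6 counts per library.

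Abcb4 (Mdr2, chromosome 5), which moves phosphatidylcholine into bile, where it shields membranes from bile acids, had 199, 145, 245 and 214 CPM in NM-FGF19 livers, 206, 293, 319 and 259 CPM in HFD control livers and 217, 194, 179 and 183 CPM in lean livers. The HFD control livers were the highest apart from HFD control 1, which lay among the lean and NM-FGF19 livers. Its log2 fold change was 0.48 ± 0.17 in HFD control against lean (0.10 to 0.85, unadjusted p = 0.0166, adjusted p = 0.107), -0.42 ± 0.17 in NM-FGF19 against HFD control (-0.80 to -0.05, adjusted p = 0.482) and 0.06 ± 0.17 in NM-FGF19 against lean (-0.32 to 0.43, adjusted p = 0.91). Of its 101-base exon windows 0.267% occur also in Abcb1a or Gm35082.

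Abcc2 (Mrp2, chromosome 19), which exports glucuronide and glutathione conjugates and divalent bile acids, had 628, 885, 594 and 643 CPM in NM-FGF19 livers, 831, 750, 564 and 710 CPM in HFD control livers and 711, 490, 407 and 357 CPM in lean livers. All 8 livers of mice on the high-fat diet were above 3 of the lean livers, and lean 1 lay among them. HFD control against lean gave a log2 fold change of 0.54 ± 0.22 (0.07 to 1.01, adjusted p = 0.148), and 0.78 with an adjusted p of 0.0332 without lean 1. In NM-FGF19 against HFD control it was -0.05 ± 0.22 (-0.52 to 0.42, adjusted p = 0.981) and in NM-FGF19 against lean 0.48 ± 0.22 (0.01 to 0.96, adjusted p = 0.285). With library totals alone as the scaling, which moved the median of all genes by 0.31, Abcb4 (0.78, adjusted p = 0.017) and Abcc2 (0.84, adjusted p = 0.0291) were called higher in HFD control livers. Of all calls 91.3% were then in the higher direction, against 60.5% with TMM.

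Abcc3 (Mrp3, chromosome 11), a basolateral pump that returns bile acids and glucuronides to blood, had 72.5, 210, 159 and 207 CPM in NM-FGF19 livers, 272, 168, 386 and 334 CPM in HFD control livers and 99.5, 44.3, 53.2 and 50.1 CPM in lean livers. Every HFD control liver was above every lean liver, as was the case for 8.40% of all tested genes in that direction. The NM-FGF19 livers overlapped both other groups, with NM-FGF19 1 among the lean livers and 2 of the others above HFD control 2. The level rose 4.69-fold in HFD control against lean livers, and this call held in all 18 alternatives, with an adjusted p of at most 0.0487, reached without lean 3 and HFD control 3 together (log2 fold change 2.02). NM-FGF19 against HFD control gave -0.84 ± 0.36 (-1.62 to -0.06, unadjusted p = 0.0374, adjusted p = 0.514). NM-FGF19 against lean gave 1.39 ± 0.37 (0.59 to 2.18, unadjusted p = 0.00243, adjusted p = 0.0839 by edgeR), a difference that passed the threshold with DESeq2 (adjusted p = 0.00383), without NM-FGF19 1 (1.63, adjusted p = 0.0477) and without lean 1 (1.72, adjusted p = 0.0468).

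Abcc4 (Mrp4, chromosome 14), a basolateral pump that exports bile acids together with glutathione, was low in all livers, at 5.15, 4.20, 2.98 and 5.28 CPM in NM-FGF19, 3.70, 4.58, 5.71 and 4.86 CPM in HFD control and 4.66, 3.02, 2.45 and 6.03 CPM in lean livers. The ranges of the 3 groups overlapped. Its log2 fold change was 0.22 in HFD control against lean (-0.39 to 0.83, adjusted p = 0.693), -0.10 in NM-FGF19 against HFD control (-0.71 to 0.51, adjusted p = 0.968) and 0.12 in NM-FGF19 against lean (-0.50 to 0.73, adjusted p = 0.882).

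Slc51b (Ost beta, chromosome 9), which with Slc51a forms the basolateral carrier for bile acids, had 4, 5, 8 and 2 counts in NM-FGF19 livers, 4, 0, 8 and 2 counts in HFD control livers and 3, 13, 17 and 7 counts in lean livers. The sums were 19 counts in NM-FGF19, 14 in HFD control and 40 in lean livers, and lean 2 and lean 3 held most of the lean sum. It did not reach the count filter. A fit without that filter gave a log2 fold change of -2.21 ± 0.85 in HFD control against lean (-3.96 to -0.46, unadjusted p = 0.015, adjusted p = 0.18), 0.77 ± 0.87 in NM-FGF19 against HFD control (adjusted p = 0.851) and -1.44 ± 0.83 in NM-FGF19 against lean (adjusted p = 0.573). Its partner Slc51a was as scarce, with 0 to 6 counts per library. Rasl12, with 0 to 17 counts, overlaps the exons of Slc51b on the opposite strand. Whether reads of the 2 strands were counted apart is unknown, so some of these few counts may be shared.

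**Figure D3:**
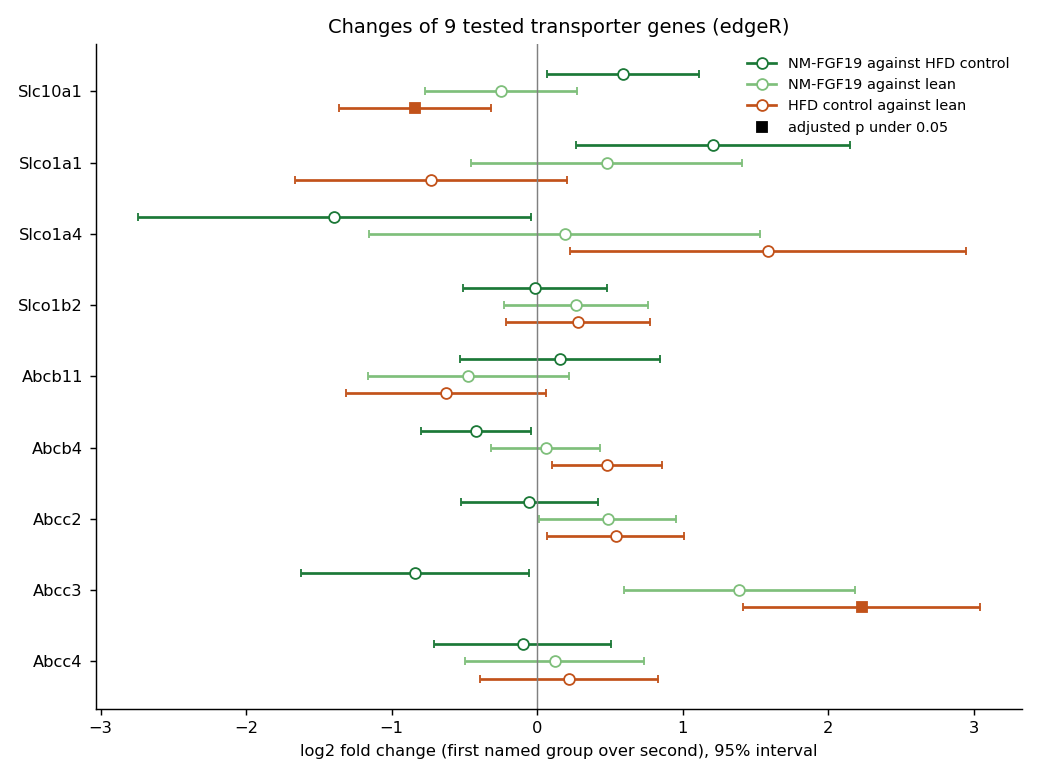
Log2 fold changes of the 9 tested transporter genes with 95% intervals (edgeR), for NM-FGF19 against HFD control, NM-FGF19 against lean and HFD control against lean; filled squares mark an adjusted p under 0.05. Squares stand at Slc10a1 (-0.84) and Abcc3 (2.23), both in HFD control against lean.

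Ratios between transporter genes of the same library do not depend on the scaling of that library. They were chosen after the values were seen and are given without a test. How often ratios of other gene pairs keep the groups apart was not examined. Of single tested genes 15.3% did not overlap in HFD control against lean. The ratio of Abcc3 to Slc10a1, efflux to uptake per length, was 0.0738 to 0.181 (median 0.151) in NM-FGF19 livers, 0.184 to 0.907 (median 0.356) in HFD control livers and 0.0315 to 0.059 (median 0.0466) in lean livers. The 3 groups did not overlap, though the highest NM-FGF19 and the lowest HFD control library were almost equal. Abcc3 by itself already did not overlap between HFD control and lean livers. The ratio of Slco1a4 to Slco1a1 was 0.0175 to 0.0503 in NM-FGF19 livers, 0.0342 to 0.569 in HFD control livers and 0.0156 to 0.0671 in lean livers. In HFD control 2 it lay in the range of the other groups, and in the other 3 HFD control libraries it was above every NM-FGF19 and lean library.

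The ratio of Abcb4 to Abcb11, the phospholipid to the bile salt pump, was 0.193 to 0.447 in NM-FGF19 livers, 0.238 to 0.780 in HFD control livers and 0.123 to 0.231 in lean livers, so that HFD control and lean did not overlap and NM-FGF19 overlapped both. Slc10a1 made up 35.7 to 48.5% (median 39.9%) of the summed length-scaled level of the 4 uptake genes in NM-FGF19 livers, 30.8 to 38.4% (33.3%) in HFD control livers and 46.6 to 52.2% (50.2%) in lean livers. HFD control and lean did not overlap in this share, and the NM-FGF19 livers reached into both ranges. How often other ratios or shares would separate these groups was not examined.

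**Figure D4:**
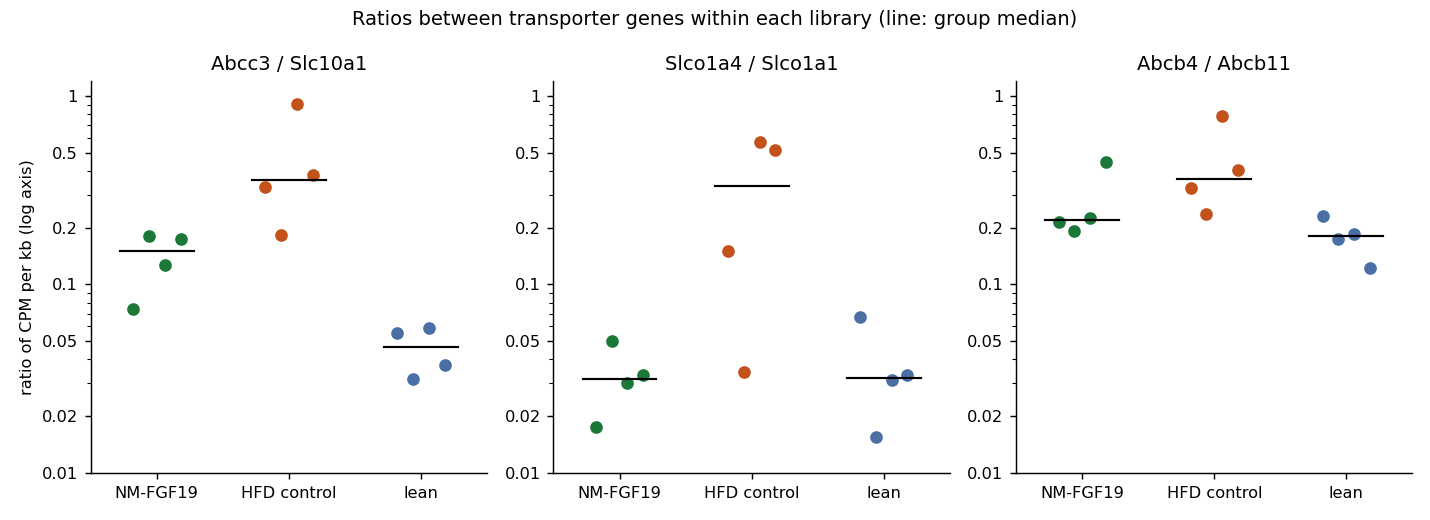
Ratios between transporter genes within each library, as CPM per kb of one gene over that of another on a log axis; points are the 4 libraries of each group and lines their medians. The ratio of Abcc3 to Slc10a1 has a median of 0.151 in NM-FGF19, 0.356 in HFD control and 0.0466 in lean livers.

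The livers farthest from their own group were HFD control 2, HFD control 3 and lean 1. Over the tested transporter genes the root mean square deviation from the group mean of log2 CPM was 0.725 in HFD control 2, 0.686 in HFD control 3 and 0.652 in lean 1, and 0.263 to 0.464 in the other 9 libraries. HFD control 3 had the lowest Slc10a1, Slco1a1, Slco1b2, Abcb11 and Abcc2 and the highest Abcb4, Abcc3 and Abcc4 of its group, and HFD control 2 had the highest Slc10a1, Slco1a1, Slco1b2 and Abcb11 and the lowest Slco1a4 and Abcc3. Lean 1 had the highest Slc10a1, Slco1a1, Slco1a4, Slco1b2, Abcb4, Abcc2 and Abcc3 of the lean livers and the lowest Abcb11.

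Among 18 tested partner and other liver transporters (of 21 listed), 5 rose, 1 fell and 12 were not called in HFD control against lean livers by edgeR, against 5.04% of all tested genes higher and 3.29% lower. With DESeq2 there were 7 higher and 3 lower calls, and with limma voom 3 higher and 1 lower. Among all 15274 tested genes DESeq2 called 1299 higher and 921 lower in that comparison, and limma voom 601 and 457. Abcg5 and Abcg8, which join to form the exporter of cholesterol into bile, were among the 5. Abcg5 had 96.4, 187, 136 and 88.8 CPM in NM-FGF19, 312, 270, 156 and 321 CPM in HFD control and 113, 56.5, 59.8 and 43.1 CPM in lean livers. Every HFD control liver was above every lean liver for Abcg5, and likewise for Abcg8. Without overlap, 7 of the 18 were higher and 2 lower in HFD control against lean. Of all tested genes 15.3% did not overlap there in either direction. In HFD control against lean Abcg5 rose by 1.96 ± 0.34 on the log2 scale and Abcg8 by 1.81 ± 0.32 (adjusted p = 0.00848 for each). Abcg2, a canalicular exporter of sulfated steroids and drugs, rose by 0.69 ± 0.15 (adjusted p = 0.0184). The other two that rose were the drug exporter Abcb1a and the carnitine carrier Slc22a5, and the gene that fell was the prostaglandin carrier Slco2a1 (-1.22 ± 0.27, adjusted p = 0.0185). Leaving out single libraries ended the call of Abcg2 in 2 of 8 cases, of Abcb1a in 4 and of Slc22a5 in 5, and of Abcg5, Abcg8 and Slco2a1 in 0. In both NM-FGF19 comparisons 0 of the 18 were called by edgeR and by limma voom; DESeq2 called 1 lower against HFD control and 1 higher against lean. In each of these comparisons 6 of the 18 had an unadjusted p under 0.05. The share of all genes was 8.95% in NM-FGF19 against HFD control and 16.7% in NM-FGF19 against lean. Among all 15274 tested genes DESeq2 called 175 higher and 114 lower against HFD control, and 601 and 368 against lean.

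Of 16 genes that anchor transporters in the membrane or traffic them, edgeR called 1 in HFD control against lean, against 8.33% of all genes. It was Msn (moesin, which links membrane proteins to actin and is abundant outside hepatocytes), higher by 0.82 ± 0.17 (adjusted p = 0.0145). In the same comparison DESeq2 called 1 higher and 1 lower, and limma voom 1 higher. Among all 15274 tested genes DESeq2 called 1299 higher and 921 lower there, and limma voom 601 and 457. In the NM-FGF19 comparisons 0 of the 16 were called by edgeR, DESeq2 or limma voom. At an unadjusted p under 0.05 there were 3 against HFD control (8.95% of all genes) and 5 against lean (16.7% of all genes). Of the 17 tested regulators of transporter genes (of 18 listed), among them the nuclear receptors Nr1h4 (FXR), Nr0b2 (SHP), Nr1i2 (PXR) and Nr1i3 (CAR), 0 were called by edgeR in any comparison. In HFD control against lean, 4 of the 17 had an unadjusted p under 0.05, against 24.6% of all genes. DESeq2 called 2 of the 17 there and limma voom 1. Against HFD control, NM-FGF19 had 1 of the 17 at an unadjusted p under 0.05 (8.95% of all genes). DESeq2 and limma voom called 0 of the 17 there. Against lean NM-FGF19 had 2 at that level (16.7% of all genes), with 2 calls by DESeq2 and 0 by limma voom. Among all 15274 tested genes DESeq2 called 175 higher and 114 lower against HFD control, and 601 and 368 against lean.

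Bile acid synthesis genes were read in the same libraries. Of 8 tested genes of the list of FGF15/19 receptor and targets, 1 fell in NM-FGF19 against HFD control by edgeR, with 3 lower by DESeq2 and 1 by limma voom. In NM-FGF19 against lean 3 fell by edgeR, with 3 lower by DESeq2 and 2 by limma voom. In both comparisons 0 rose by any of the 3 tools, and 0 were higher at an unadjusted p under 0.05. Across all genes edgeR called 0.151% lower against HFD control and 0.484% lower against lean. Of the 15274 genes DESeq2 called 114 and 368 lower in these comparisons, and limma voom 19 and 44. Cyp8b1, the sterol 12-alpha-hydroxylase that makes cholic acid, had 90.9, 82.3, 151 and 124 CPM in NM-FGF19 livers, 277, 432, 372 and 389 CPM in HFD control livers and 473, 345, 305 and 405 CPM in lean livers. All NM-FGF19 livers were below all others, with values of -1.72 ± 0.22 on the log2 scale against HFD control (adjusted p = 0.00699) and -1.77 ± 0.22 against lean (adjusted p = 0.00324). Of the 8 genes, 3 were lower without overlap against HFD control and 5 against lean. Of all tested genes 5.62% and 10.3% did not overlap in these comparisons in either direction. Cyp7a1, the rate-limiting enzyme of the classical pathway, fell by 4.32 on the log2 scale against lean (± 0.93, adjusted p = 0.0489, called in 2 of 8 fits without a library) and had a value of -4.79 ± 0.95 against HFD control (adjusted p = 0.0672). Cyp27a1, of the alternative pathway, fell by 1.16 ± 0.14 against lean (adjusted p = 0.00324), and by 0.50 ± 0.14 in HFD control against lean (adjusted p = 0.0475, called in 1 of 8 fits without a library). The 95% interval of the log2 difference between the same NM-FGF19 and HFD control livers ran from -0.53 to 0.84 for the export pump Abcb11 and from 0.07 to 1.11 for the uptake carrier Slc10a1. These intervals are not adjusted for the number of genes. Neither gene was called (adjusted p = 0.949 for Abcb11 and 0.479 for Slc10a1 by edgeR), nor was any other of the 9 tested transporters.

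Of 5 tested genes of bile acid conjugation and detoxification (of 8 listed), edgeR called 1 in HFD control against lean, against 8.33% of all genes. In that comparison DESeq2 called 1 higher and 1 lower, and limma voom 1 higher. Among all 15274 tested genes DESeq2 called 1299 higher and 921 lower there, and limma voom 601 and 457. Cyp3a11 hydroxylates bile acids and drugs and belongs to a family of close copies among which reads could be split, so its values are uncertain. It had 102, 101, 168 and 252 CPM in NM-FGF19 livers, 764, 237, 2609 and 1454 CPM in HFD control livers and 78.2, 66.3, 31.9 and 181.5 CPM in lean livers. HFD control livers were all above the lean livers, as was the case for 8.40% of all tested genes, and HFD control 2 was among the NM-FGF19 livers. HFD control against lean gave 3.82 ± 0.74 on the log2 scale (adjusted p = 0.0132), and without lean 3 and HFD control 3 together it was 2.93 with an adjusted p of 0.0675. In NM-FGF19 against HFD control it was -3.02 ± 0.71 (adjusted p = 0.121). In the NM-FGF19 comparisons 0 of the 5 were called by edgeR and limma voom. Against HFD control DESeq2 called 1 and 1 had an unadjusted p under 0.05 (8.95% of all genes). Against lean DESeq2 called 2 and 2 had an unadjusted p under 0.05 (16.7% of all genes). Among all 15274 tested genes DESeq2 called 175 higher and 114 lower against HFD control, and 601 and 368 against lean.

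The genes whose pattern was most like that of each transporter were found among all tested genes, as those with the smallest root mean square difference of log2 CPM over the 12 libraries, after centring each gene on its own mean. The nearest to Slc10a1 were Cyp4f14 (0.174) and Mup3 (0.203), against a standard deviation of Slc10a1 itself of 0.498. Mup3 belongs to a multigene family with near-identical copies, and its counts are uncertain. Nearest to Slco1a1 (standard deviation 0.882) were Slc22a28 (0.318) and Lin7a (0.375), and to Slco1a4 (1.07) they were Sema5b (0.454) and Nr1i3 (0.520). These are the smallest distances among all tested genes with a symbol. Their lying below the genes' own variation follows largely from that choice. How often such distances arise was not tested, and the points share library, depth and scaling. Nr1i3 had 22.9, 45.4, 20.9 and 40.5 CPM in NM-FGF19 livers and 76.5, 34.1, 58.0 and 135 CPM in HFD control livers. In lean livers it had 75.5, 27.4, 12.03 and 14.4 CPM. Its highest value was in HFD control 4 and it was high in lean 1, as for Slco1a4. Nr1i3 was picked by this likeness, and a link between these genes was not tested.

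Nearest to Slco1b2 (standard deviation 0.321) were Prodh2 (0.150) and Tbc1d32 (0.151), to Abcb11 (0.536) Tirap (0.180), and to Abcb4 (0.305) Gm1840 (0.166) and Cttnbp2nl (0.170). For Abcc2 (0.380) they were Adarb1 (0.145) and Nr1d2 (0.150), for Abcc3 (1.06) Sulf2 (0.333) and Slc16a7 (0.399), and for Abcc4 (0.387) 2310009B15Rik (0.182) and 1500015A07Rik (0.197). None of the 9 tested transporters was among the 2 nearest genes of another.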

How the data were processed

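Liver RNA from 12 male mice, 4 per group, was sequenced from stranded mRNA libraries, per the labels' protocols. The authors deposited raw counts per gene, made with Trimmomatic, STAR and featureCounts on mm39, per the submitters' processing notes (versions, annotation and strand mode: not given in the sources used here). Symbols were matched for 52083 IDs, and the 3276 others held 0.515% of counts. Replicates of a group differed by far more than counting noise (lowest chi-square per degree of freedom 40.8). The test was that of edgeR 4.0.16 under R 4.3.3 (TMM, filterByExpr with a minimum count of 10, robust quasi-likelihood F test, 2-sided, Benjamini-Hochberg adjustment, threshold 0.05) in 1 fit over all 12 libraries with group as the term. CPM was computed on the TMM-scaled total, and log2 CPM used a prior count of 2. The 3-count floor covers counting error only. Alternatives used DESeq2 1.42.0, limma 3.58.1 (voom), other scalings and filters, a replicate block and left-out libraries. Scripts were tested on simulated data. The transporters, gene lists and alternatives were chosen with earlier results of these data known. Named genes are the 10 transporters, up to 3 called genes per other list, comparison and direction (by adjusted p), and the 2 nearest patterns per transporter; Abcb1a, Slc22a5, the regulators and the marker genes were named beside these, after their values were seen. The other nearest pattern of Abcb11 is not reported here. Exon lengths and shared 101-base windows come from a GENCODE annotation of GRCm38 and promoters from RefSeq, an older build than that of the counts. HFD mice killed before treatment were not analysed here.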

Additional observations from a re-analysis of the deposited data

Results flagged for a closer look

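The CPM of the 10 transporter genes was examined in each group of 4 livers, 30 groups in all, for a library far from the other 3, by Dixon's test of the gap to its nearest neighbour over the range of the group. Chance gives such a library in about 1 of 20 groups, and 3 were found. Slco1a4 in lean 1 stood at 32.1 CPM, with the other lean livers at 6.27 to 9.79 CPM (gap 0.863 of the range). Abcc3 in lean 1 stood at 99.5 CPM, with the others at 44.3 to 53.2 CPM (0.838). Abcc2 in NM-FGF19 2 stood at 885 CPM, with the others at 594 to 643 CPM (0.833). Lean 1 thus holds 2 of the 3. Without it the HFD control against lean log2 fold change of Slco1a4 was 2.40 (adjusted p = 0.0311 by edgeR) against 1.58 with it.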

How the results depend on the processing

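Of 486 values of the 9 tested genes under 18 alternatives per comparison, 448 kept direction and side of the threshold, 12 lost a call, 8 gained a call and 18 changed sign. All 18 belong to differences that were not called. In HFD control against lean, Slc10a1 was not called with limma voom (-0.85, adjusted p = 0.0557), library totals alone (-0.56, 0.143), at least 1 CPM in at least 4 samples (-0.81, 0.0513), the fit that was not robust (-0.84, 0.0509), the 2 groups alone (-0.82, 0.107) or the replicate block (-0.85, 0.068), so that 0 transporters were then lower in place of 1. With library totals alone 3 transporters were higher in place of 1. Leaving out 1 library gave 0 to 2 lower and 1 to 3 higher. Slc10a1 lost its call in 6 of 8 such fits, which gave -0.97 to -0.64, and kept it without HFD control 2 and without lean 3. Abcb11 was gained as lower without HFD control 2, and Slco1a4 and Abcc2 as higher without lean 1. In NM-FGF19 against lean, DESeq2 called 1 higher in place of 0, and leaving out 1 library gave 0 to 1. The cause of these changes was not tested.

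Without lean 3 and HFD control 3 together the sign changed for Abcc4 in HFD control against lean (-0.0407), in NM-FGF19 against HFD control (0.0017) and in NM-FGF19 against lean (-0.0390), and for Abcb11 in NM-FGF19 against HFD control (-0.0514). In NM-FGF19 against HFD control, values without 1 library crossed 0 for Slco1b2 (-0.21 to 0.105), Abcb11 (-0.0439 to 0.53), Abcc2 (-0.21 to 0.0160) and Abcc4 (-0.21 to 0.0429). In NM-FGF19 against lean they did so for Slco1a4 (-0.0438 to 1.00), Abcb4 (-0.0419 to 0.19) and Abcc4 (-0.0397 to 0.39).

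Library totals alone moved the median log2 fold change of all genes by 0.31 in HFD control against lean, by -0.13 in NM-FGF19 against HFD control and by 0.18 in NM-FGF19 against lean. The share of higher calls was then 91.3% (60.5% with TMM) in HFD control against lean, 46.4% (65.2%) in NM-FGF19 against HFD control and 86.9% (67.5%) in NM-FGF19 against lean. In HFD control against lean 770 genes were called higher and 502 lower by edgeR, 1299 and 921 by DESeq2, 601 and 457 by limma voom and 384 and 209 with the replicate block. In NM-FGF19 against HFD control these counts were 43 and 23 by edgeR, 175 and 114 by DESeq2, 28 and 19 by limma voom and 12 and 6 with the block. In NM-FGF19 against lean they were 154 and 74 by edgeR, 601 and 368 by DESeq2, 62 and 44 by limma voom and 25 and 15 with the block. No pairing of mice by replicate number was seen. Of 12 pairs with the same number 0 had a correlation of deviations over 0.1 (-0.363 to 0.0712), and 0 libraries matched best with their own number. With 4 libraries per group a weak shared effect could be missed. Depth limits Slc51b and Slc51a, with at most 17 and 6 counts per library. Abcc4 was also thinly counted, with 48 counts in lean 3 and a sum of 387 over the lean livers. Depth hardly limits the other tested transporters, whose lowest count in a library was 135 (Slco1a4 in lean 2).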
